A study of Mus musculus with 12 samples.

Results

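The 7 genes described here encode products by which blood platelets are recognised. They are the chemokines Pf4 (platelet factor 4) and Ppbp (pro-platelet basic protein), the subunits Gp1ba, Gp1bb, Gp9 and Gp5 of the receptor for von Willebrand factor, and the collagen receptor Gp6. They were found by gene name in the array annotation, and the rule sets no threshold on their measured values, although the set was proposed with earlier results of these data known. All 7 were found, each with 1 probe, among 21156 named genes and 41174 probes. The annotation names 5 of them as here and lists Pf4 and Ppbp under the older names Cxcl4 and Cxcl7, so these 2 were matched through their RefSeq accessions. The probes lie, in the mm7 coordinates of the array annotation, at chr5:90744523-90744582 (Pf4), chr5:90741218-90741277 (Ppbp), chr6:87854749-87854808 (Gp9), chr11:70723487-70723546 (Gp1ba), chr16:18170747-18170806 (Gp1bb), chr16:29981233-29981292 (Gp5) and chr7:3926779-3926838 (Gp6). All 7 probes were kept by the filter on dim probes, which asked for a signal well above background in KO or in WT RNA on at least 6 of 12 arrays and kept 35562 probes in all.

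Messenger RNA of mouse lung tumours was compared on 2-colour microarrays between tumours with both copies of Dnmt3a deleted by a conditional allele (KO) and tumours with wild-type Dnmt3a (WT). Dnmt3a encodes a DNA methyltransferase that can methylate CpG sites anew. All animals were C57/129 mice with the K-ras LSL-G12D allele, and all received adenoviral Cre through the airways at 6 to 12 weeks of age, so mutant K-ras was common to both groups. The labels place the recombined alleles in lung cells, and whether the blood cells of a tumour carried them is not given. KO and WT RNA were labelled with different dyes and hybridised together on each of 12 arrays, 6 of them with the KO RNA in Cy5. Arrays whose 2 animals have identical ages and sexes in the labels are called a pair. Pair A (replicates 1 to 4) set a KO male of age 47.7 against a WT male of age 42.6, and pair B (replicates 5 to 8) a KO male of age 27 against a WT male of age 41.3. Pair C (replicates 9 and 10) set a KO male of age 27 against a WT female of age 47.6, and pair D (replicates 11 and 12) a KO male of age 29.1 against a WT male of age 37.3. The unit of age is not given in the labels. KO animals were younger than WT animals in pairs B, C and D, so genotype and age are partly confounded. The labels call each array a biological replicate, but within a pair the listed ages and sexes are the same, and pairs B and C share the KO age and sex, so animals may be shared. The p-values then cover the spread between these samples alone, and part of that spread may be technical.

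Platelets are fragments without a nucleus that megakaryocytes shed into the blood, and they carry RNA made in the megakaryocyte. Pf4 and Ppbp are stored in platelet alpha granules and released on activation. Pf4 binds heparin and related glycosaminoglycans, and Ppbp is trimmed to a peptide that attracts neutrophils. Gp1ba, Gp1bb, Gp9 and Gp5 form the GPIb-IX-V complex, which holds platelets to von Willebrand factor on damaged vessels, and Gp6 signals on contact with collagen. Megakaryocytes also reside in the lung and shed platelets there, and Pf4 RNA is known from some tissue macrophages as well. The tumours were measured in bulk, so fewer cells of a type and less RNA per cell cannot be told apart.

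Pf4 and Ppbp are neighbours in a chemokine cluster on chromosome 5. Their promoter windows are shown because these 2 neighbours gave unlike ratios, and that of Gp9 because it was the other gene of the 7 with a call. The windows run from 250 bases before the start site to 50 after it and come from RefSeq on build GRCm38.p6, where all 7 genes matched. They lie at chr5:90772185-90772484 (plus strand) for Pf4, chr5:90768268-90768567 (plus strand) for Ppbp and chr6:87777820-87778119 (plus strand) for Gp9. Capitals mark matches on either strand to words bound by GATA factors (AGATAA or TGATAA, and likewise AGATAG or TGATAG) or ETS factors (AGGAAG or CGGAAG), the families to which the megakaryocyte factors Gata1 and Fli1 belong.
Pf4: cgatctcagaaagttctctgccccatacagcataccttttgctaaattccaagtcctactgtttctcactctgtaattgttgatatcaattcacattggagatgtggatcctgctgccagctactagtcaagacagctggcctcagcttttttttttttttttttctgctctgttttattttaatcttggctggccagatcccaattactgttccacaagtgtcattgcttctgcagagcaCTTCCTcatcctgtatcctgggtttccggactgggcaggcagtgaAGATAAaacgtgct
Ppbp: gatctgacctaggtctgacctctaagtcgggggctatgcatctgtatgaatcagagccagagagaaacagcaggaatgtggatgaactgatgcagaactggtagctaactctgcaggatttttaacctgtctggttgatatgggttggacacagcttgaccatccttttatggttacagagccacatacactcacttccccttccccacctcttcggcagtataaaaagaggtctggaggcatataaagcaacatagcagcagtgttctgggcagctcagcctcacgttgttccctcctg
Gp9: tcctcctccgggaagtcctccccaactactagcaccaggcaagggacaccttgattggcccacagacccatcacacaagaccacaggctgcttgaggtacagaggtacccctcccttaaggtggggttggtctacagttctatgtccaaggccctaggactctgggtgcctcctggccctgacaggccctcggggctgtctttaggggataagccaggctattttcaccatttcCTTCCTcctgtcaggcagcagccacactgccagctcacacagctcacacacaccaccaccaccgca

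The Pf4 window held 1 GATA match and 1 ETS match, the Gp9 window 0 and 1, and the Ppbp window neither. Among the other members, Gp1ba had 3 GATA and 1 ETS matches, Gp1bb 1 and 2, Gp5 3 and 1, and Gp6 1 and 0. None of these matches overlapped another. Over 32841 promoter windows of the same length, 29.8% held a GATA match, 46.5% an ETS match and 12.6% both. CpG sites, where Dnmt3a acts, numbered 3 in each of the Pf4, Ppbp, Gp9 and Gp1ba windows, 8 in that of Gp1bb, 1 in that of Gp6 and 0 in that of Gp5. The median over all windows was 7 CpG sites, and 31.4% of windows had 3 or fewer. No methylation was measured in these samples, so the windows are a description only.

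As a check of the labels, all 3 Dnmt3a probes were lower in KO RNA (-0.55, -0.25 and -0.21, limma adjusted p = 0.00265, 0.0158 and 0.0217), on 12, 11 and 12 arrays. With single arrays left out, only the call of the third probe ended, without replicate 12 (-0.20, limma adjusted p = 0.0511). Over all alternatives the 3 probes stayed below 0 and kept their calls in 28 of 32, 24 of 33 and 19 of 33. Their limma adjusted p rose to at most 0.256, 0.454 and 0.459. Which exons were deleted is not stated in the labels, and probes outside them would be no check. Slide 3, which held pairs C and D, had 59.0% to 72.2% of probes well above background, against 81.6% to 89.6% on slides 1 and 2, where pairs A and B lay. Median signal over local background was between 3.41 and 9.74 per array and RNA, and 12 arrays set the precision that each ratio can have. On slide 3 all KO RNA of pair C was in Cy5 and all of pair D in Cy3, so that dye and pair cannot be told apart there.

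Pf4 RNA was called higher in the KO tumours in the main fit, and it was the only member that was. Gp9 RNA was called lower, and the other 5 members did not pass. The call was kept in 17 of 33 alternatives for Pf4 and in 9 of 32 for Gp9. The 2 calls were 2 of 7 members, against 5.71% of all kept probes (limma with pair as a random block, adjusted p under 0.05), and the split was 1 higher and 1 lower, where 2.83% of kept probes were called higher and 2.88% lower. Over all kept probes the split was 1007 higher to 1025 lower, and it was 940 to 585 if outlying local backgrounds were kept as the files give them. The 2 calls therefore went in opposite directions. The median log2 KO over WT ratio of the 7 members was -0.073, beside a median of -0.0026 over all kept probes. Pf4 lay at percentile 95.6 of mean signal among kept probes, and the others between 6.93 (Gp1ba) and 40.4 (Ppbp). Ratio sizes of dim members depended on the background correction. With Agilent's processed signals Ppbp, Gp9, Gp1ba and Gp6 read -0.33, -0.71, -0.31 and -0.28, while Gp1bb and Gp5 stayed at 0.016. Small ratios of the dim members are thus no measure of lack of change beside Pf4.

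**Figure D1:**
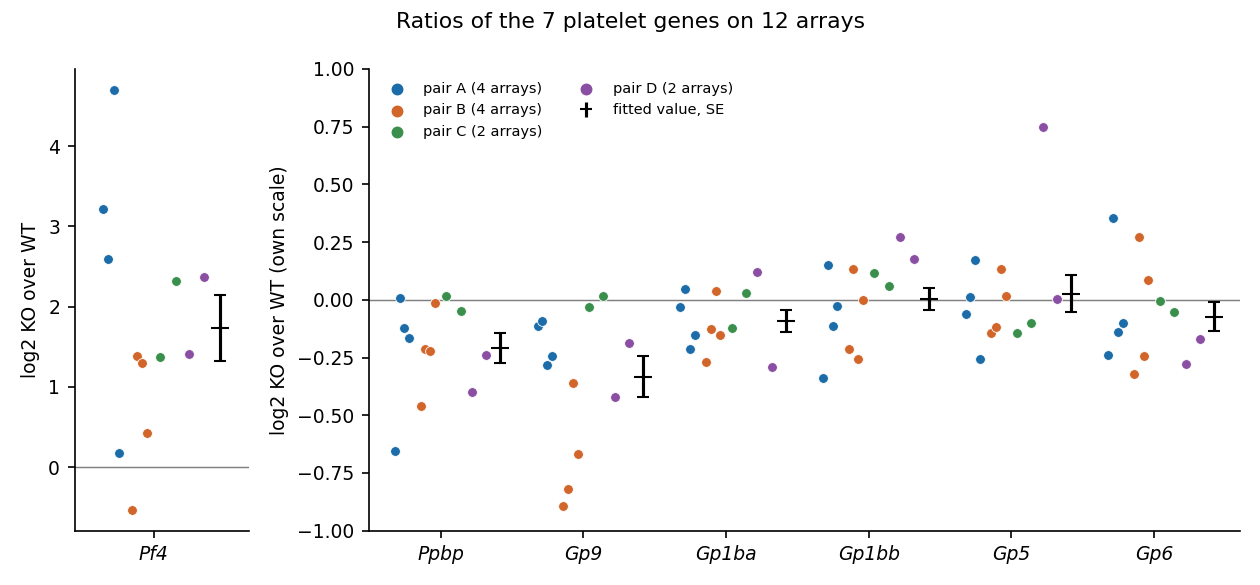
Log2 KO over WT ratio of each of the 7 genes on each of 12 arrays (points, coloured by pair) with the fitted value and its SE (black). The left panel shows Pf4, with 11 points above 0 and values up to 4.70, and the right panel the other 6 genes on a narrower scale, where values lie between -0.89 and 0.75.

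The fitted log2 ratio of Pf4 was 1.74 ± 0.41 (SE, n = 12 arrays, limma adjusted p = 0.0330), which is 3.33-fold higher in KO RNA. In pair A the 4 arrays read 3.22, 2.60, 4.70 and 0.17. The 4 arrays of pair B read -0.53, 1.39, 1.29 and 0.43. Those of pair C read 1.37 and 2.32, and those of pair D 1.41 and 2.37. The ratio was above 0 on 11 of 12 arrays, with replicate 5 the exception, while 3.28% of kept probes were above 0 on at least 11. The values of pair A alone, from 0.17 to 4.70, spanned more than the 4 pair means did (SD 1.42 over 12 arrays). By size of ratio Pf4 ranked 26 among 35562 kept probes.

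The Pf4 probe was bright in both genotypes, being well above background in KO and in WT RNA on 12 of 12 arrays and saturated on 0. Its signal was a median of 415 times the local background in KO RNA and 134 times in WT RNA. Normalized log2 intensity in KO RNA ran from 11.53 through a median of 14.30 to 16.02. In WT RNA it ran from 11.16 through 12.14 to 14.50. The 2 ranges overlapped widely. The 2 arrays with the lowest ratios differed in which RNA was unusual. Replicate 4 had the highest WT level of all 12 arrays (14.50) beside a KO level of 14.67, and replicate 5 had the lowest KO level (11.53) beside a WT level of 12.06.

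Over the 4 pair means (2.67 in A, 0.64 in B, 1.85 in C and 1.89 in D) an exact two-sided sign-flip permutation test gave p = 0.125, the smallest p that 4 pairs allow. The difference between pairs was not detectable for Pf4 (limma F test, adjusted p = 0.549). The call for Pf4 was close to its threshold. It ended when replicate 1, 2, 6, 7, 10 or 12 was left out (limma adjusted p between 0.0503 and 0.0755, ratios between 1.63 and 1.79) and when pair A, C or D was left out (1.29, 1.80 and 1.60, adjusted p = 0.0953, 0.0842 and 0.106). Without pair B it stood at 2.26 (limma adjusted p = 0.0346), and within the slide of pair B alone at 0.64. Over all 33 alternatives the Pf4 ratio stayed above 0, with limma adjusted p between 0.00890 and 0.560.

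Ppbp, the other granule chemokine and the gene next to Pf4, did not pass the test. Its ratios ran from -0.65 through a median of -0.19 to 0.015, and 10 of 12 were below 0. The fitted log2 ratio was -0.21 ± 0.066 (SE, n = 12 arrays, limma adjusted p = 0.0872). Normalized log2 intensity lay between 6.98 and 7.90 in KO RNA and between 6.99 and 8.23 in WT RNA, so the groups overlapped. The signal was well above background on 10 arrays for KO and on 12 for WT RNA, and both exceptions were the arrays of pair D. The ratio was between -0.33 and -0.17 under all 32 alternatives run for it, and 1 of these, which took the 12 arrays as independent, gave a call (limma adjusted p = 0.0482). Pf4 and Ppbp thus had fitted values on opposite sides of 0, and across the 12 arrays their ratios correlated at a Pearson r of 0.03, given as a description since arrays of a pair may share animals.

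**Figure D2:**
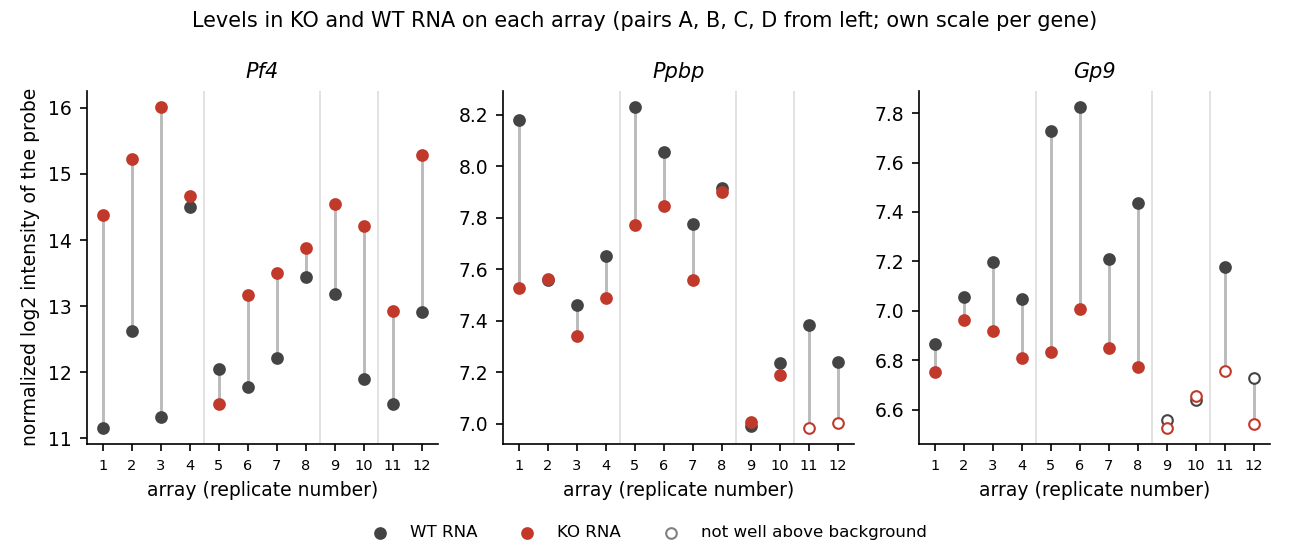
Normalized log2 intensity of the Pf4, Ppbp and Gp9 probes in WT (black) and KO (red) RNA on each array, with a grey line joining the 2 values of an array, grey rules between pairs and open symbols where the signal was not well above background. KO lies above WT for Pf4 on 11 arrays, and below it for Ppbp on 10 and for Gp9 on 11.

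Within the GPIb-IX-V complex, Gp9, the small subunit that stabilises the complex at the cell surface, was the only one called. Its fitted log2 ratio was -0.33 ± 0.088 (SE, n = 12 arrays, limma adjusted p = 0.0471), a value that includes arrays with signals near background. On the 8 arrays where both RNAs were well above background the ratio was below 0 on 8, and over all arrays on 11 of 12, where 3.16% of kept probes were below 0 on at least 11. Pair B carried the largest values, at -0.89, -0.82, -0.36 and -0.67. Pair A read -0.11, -0.09, -0.28 and -0.24, pair D -0.42 and -0.19, and pair C -0.03 and 0.02. The F test between pairs gave an adjusted p of 0.199 for Gp9 (limma, unadjusted p = 0.00590).

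The Gp9 signal was low. It was well above background on 8 arrays for KO and on 9 for WT RNA, namely the 8 arrays of slides 1 and 2 and, for WT, replicate 11. On the other 3 arrays of slide 3 both RNAs were near background, so their ratios carry no fold. Normalized log2 intensity ran from 6.53 to 7.01 in KO RNA and from 6.56 to 7.83 in WT RNA, which overlapped. With Agilent's processed signals in place of normexp-corrected ones the Gp9 value was -0.71 (limma adjusted p = 0.00936), and within slide 3 it was -0.16 (0.395). The Gp9 call ended when any single array other than replicate 5 or 10 was left out (limma adjusted p up to 0.0885, ratios between -0.36 and -0.30), and when pair A, B, C or D was left out (-0.41, -0.17, -0.41 and -0.36, adjusted p = 0.123, 0.127, 0.0511 and 0.0942). With slide 3 left out, an alternative added after the data were seen, Gp9 stood at -0.43 (limma adjusted p = 0.0797) and Pf4 at 1.66 (0.156), so that 0 of 7 members were called.

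The other subunits did not pass the test. Gp1ba, which holds the binding site for von Willebrand factor, stood at -0.093 ± 0.047 (SE, n = 12, limma adjusted p = 0.287), with array values from -0.29 through -0.13 to 0.12. Gp1bb, the subunit bound to Gp1ba by a disulphide bridge, stood at 0.0044 ± 0.047 (SE, n = 12, limma adjusted p = 0.973), with array values from -0.34 through 0.028 to 0.27. Gp5, which thrombin cleaves, stood at 0.027 ± 0.081 (SE, n = 12, limma adjusted p = 0.895), with array values from -0.25 through -0.028 to 0.75. Arrays were split between both signs for all 3 genes, with 4, 6 and 6 of 12 above 0. The signs of Gp1bb and Gp5 changed between settings and have no direction, and the Gp1ba value was -0.31 with Agilent's processed signals, still without a call. Gp1bb and Gp5 were well above background in both RNAs on 12 arrays, and Gp1ba on 8, namely those of slides 1 and 2.

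Gp6, the collagen receptor that signals through the chain Fcer1g, did not pass the test either. Its ratio was -0.073 ± 0.061 (SE, n = 12 arrays, limma adjusted p = 0.561), with array values from -0.32 through -0.12 to 0.35 and 9 of 12 below 0. With Agilent's processed signals it was -0.28, also without a call. Its signal was a median of 2.11 times the local background in KO RNA and 2.40 times in WT RNA, and it was well above background on the 8 arrays of slides 1 and 2 and on 0 arrays of slide 3. Of the 7 members, 4 (Ppbp, Gp9, Gp1ba and Gp6) thus had signals near background on part of the arrays, and a change in them was not detectable there.

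Between pairs, 0 of 7 members were called by the limma F test, against 0.366% of kept probes. At an unadjusted p under 0.05 by the same F test, 2 members differed, Gp9 and Gp1bb (p = 0.0289 for the latter), as did 4446 of 35562 kept probes. Correlations among the 6 members other than Pf4 lay between -0.30 (Gp5 with Gp6) and 0.64 (Ppbp with Gp6) over the 12 arrays. Pf4 correlated at 0.55 with Gp9, although the Pf4 ratios lay above 0 and those of Gp9 below it, and between -0.04 and 0.21 with the other 5. These values share arrays, and for 4 genes also low signals, and are descriptions.

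Platelet genes outside the 7 were read from 4 lists with 68 genes, of which 65 were tested. None of them was called higher and 7 were called lower, which is 10.8% called against 7.5% of the 19582 genes tested, with 3.55% higher and 3.95% lower. At an unadjusted p under 0.05 by limma, 1 was higher and 20 were lower. Of all 35562 kept probes, 7455 were under that level in either direction. The unadjusted counts given below for single lists stand beside that same number. The fitted ratio was below 0 for 52 of 65 genes, where 52.8% of all genes were, and the median was -0.10 beside -0.0062 over all genes. No gene of these lists was thus called higher beside Pf4 in the main fit. Among 22 receptor and integrin genes, 14 were well above background in both RNAs on 12 arrays. So were 16 of 17 granule genes, 16 of 17 cytoskeletal and signalling genes, and 6 of 9 megakaryocyte factor genes. The remaining genes had signals near background on part of the arrays, and a change in them was not detectable there. The 1 gene higher at an unadjusted p under 0.05 is of the cytoskeletal and signalling list. It stood at 0.29 (limma adjusted p = 0.195), higher on 10 of 12 arrays.

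**Figure D3:**
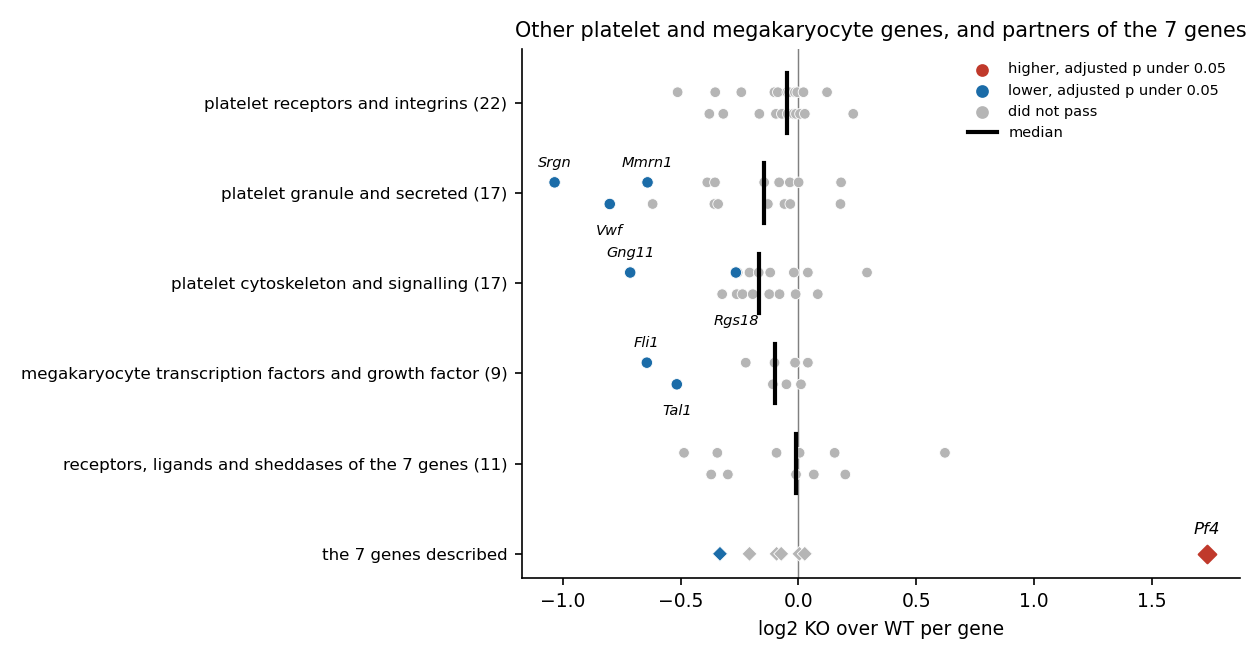
Fitted log2 KO over WT ratio of each tested gene (points) in 4 lists of platelet and megakaryocyte genes and in a list of partners, with list medians (black), called genes named, and the 7 genes described in the bottom row. The 7 called list genes lie between -1.04 and -0.27, and Pf4 stands alone at 1.74.

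Of 22 platelet receptors and integrins, 0 were called by limma, while 0 were higher and 7 lower at an unadjusted p under 0.05. The 4 of smallest p were the thromboxane receptor Tbxa2r (-0.17, limma adjusted p = 0.0551), the podoplanin receptor Clec1b (-0.51, 0.0692), the tetraspanin Cd9 (-0.38, 0.0809) and the junction protein Esam (-0.32, 0.115). Of 17 granule and secreted products, 3 fell. They were Vwf, the ligand of the GPIb-IX-V complex (-0.80 ± 0.10, limma adjusted p = 0.00169, lower on 12 of 12 arrays), the granule proteoglycan Srgn (-1.04 ± 0.15, 0.00292, lower on 11) and the factor V carrier Mmrn1 (-0.64 ± 0.16, 0.0331, lower on 12). Vps33b, needed to form alpha granules, stood at -0.35 (limma adjusted p = 0.0856). The list also holds products of other cells, since Vwf and Mmrn1 are made by endothelium and Srgn by most blood cells.

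Of 17 cytoskeletal and signalling genes, 2 were called lower. They were the G protein subunit Gng11 (-0.71 ± 0.099, limma adjusted p = 0.00247, lower on 12 of 12 arrays) and the G protein regulator Rgs18 (-0.27 ± 0.069, 0.0395, lower on 10). The Rgs18 signal was well above background on 7 arrays for KO and on 8 for WT RNA. Its value thus includes arrays with signals near background. Of 9 genes for megakaryocyte transcription factors and their growth factor, 2 fell, the ETS factor Fli1 (-0.64 ± 0.081, limma adjusted p = 0.00146) and Tal1 (-0.52 ± 0.074, 0.00280), both lower on 12 of 12 arrays and both also endothelial genes. Runx1 (-0.10, limma adjusted p = 0.252) and Zfpm1, a partner of Gata1 (-0.22, 0.344), did not pass. The calls of Vwf, Srgn, Gng11, Fli1 and Tal1 held with any single array left out. That of Mmrn1 ended without replicate 1, 3, 4, 6 or 8 (limma adjusted p up to 0.0697), and that of Rgs18 without replicate 1, 3, 4, 6, 7, 10, 11 or 12 (up to 0.0786).

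Partners of the 7 gene products were read next. Of 12 such genes 11 were tested, and 0 were called by limma, with 0 higher and 2 lower at an unadjusted p under 0.05. The chemokine receptors were Cxcr3, proposed for Pf4 (-0.093, limma adjusted p = 0.722), and Cxcr2, which binds the Ppbp product (-0.34, 0.363). The leukocyte integrin chains Itgam and Itgb2, which together bind Gp1ba, stood at 0.15 (limma adjusted p = 0.553) and -0.30 (0.217). Thrombin, encoded by F2, stood at 0.62 (limma adjusted p = 0.594) and factor XI, encoded by F11, at 0.20 (0.391). The proteases that shed Gp6 and Gp1ba, Adam10 and Adam17, stood at 0.066 (limma adjusted p = 0.708) and 0.0053 (0.982). The collagen genes Col1a1, Col1a2 and Col3a1 stood at -0.37 (limma adjusted p = 0.395), -0.49 (0.200) and -0.010 (0.991). Adamts13, which cuts von Willebrand factor, was on the array and was left out by the filter on dim probes. The median of this list was -0.010.

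Markers of other cell types were read beside the Pf4 result. General macrophage genes had a median ratio of -0.18 over 11 genes, with 0 called by limma (0 higher and 1 lower at an unadjusted p under 0.05). Their summed level, a sum of normalized intensities that has no unit, ran from 114701 to 372238 in KO RNA and from 101981 to 340148 in WT RNA, and was higher in KO RNA on 7 of 12 arrays, while the median of the gene ratios was below 0 on 9. All 11 were well above background in both RNAs on 12 arrays. Interstitial macrophage genes had a median of -0.22 over 9 genes, of which 2 were called lower, among them Stab1 (-0.37, limma adjusted p = 0.0367). Alveolar macrophage genes had a median of -0.50, with Itgax (-0.54, limma adjusted p = 0.0481) lower among 7. Summed levels were higher in KO RNA on 8 of 12 arrays for the interstitial genes and on 4 for the alveolar genes. No macrophage gene of these lists was called higher. The summed level gives most weight to the brightest genes of a list, so it can differ from the median of the gene ratios. The macrophage measures did not point one way on the arrays of highest Pf4 ratio. On replicates 1 and 3 the general macrophage median was -0.27 and -0.24, while the summed level was higher in KO RNA (282334 to 184009 on replicate 1, and 340383 to 193181 on replicate 3). The alveolar median was -1.38 on replicate 1 and 0.59 on replicate 3.

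Red cell genes, which would come with blood, had a median of -0.047 over 7 tested of 11, and their summed level was higher in KO RNA on 2 of 12 arrays (4296 to 21177 in KO and 8386 to 35978 in WT RNA), with the globin gene Hba-a1 lower (-1.49 ± 0.34, limma adjusted p = 0.0258) and Alas2 at -1.02 (0.0518). Endothelial genes were lower for 14 of 15, among them Pecam1 (-0.65 ± 0.060, limma adjusted p = 0.000364) and Cdh5 (-0.83 ± 0.075, 0.000348), with a list median below 0 and a lower summed KO level on 12 of 12 arrays (23632 to 34631 in KO and 38631 to 63806 in WT RNA). Neutrophil genes had a median of -0.049, with Mmp8 higher (0.74 ± 0.19, limma adjusted p = 0.0358) among 8, and mast cell genes one of 0.17, with 0 of 6 called (1 higher at an unadjusted p under 0.05). Of 10 lung epithelial genes 0 were called by limma (1 higher at an unadjusted p under 0.05). All 10 markers of this labelled tissue were well above background in both RNAs on 12 arrays. The calls of Stab1, Itgax, Hba-a1 and Mmp8 each ended with 1 or more single arrays left out, with limma adjusted p up to 0.0793, 0.105, 0.0551 and 0.0693. Hba-a1 ended without replicate 3 or 9. The part of any of these cell types in the Pf4 and Gp9 values was not tested.

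**Figure D4:**
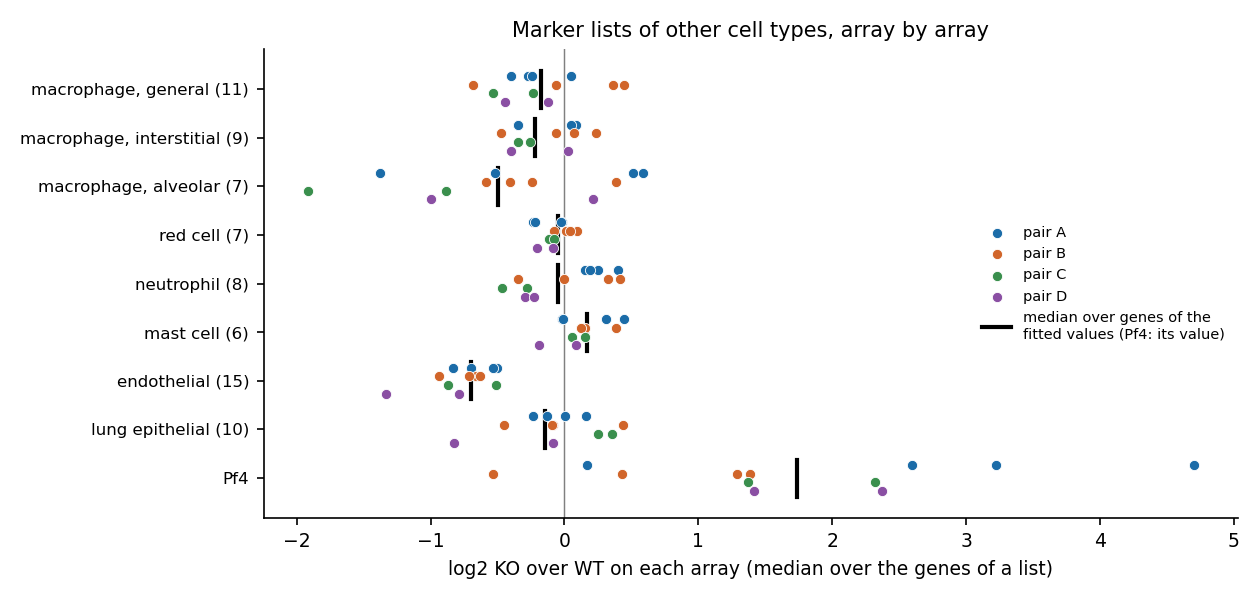
Median log2 KO over WT ratio of each marker list on each of 12 arrays (points, coloured by pair; number of genes in brackets), with the median of the fitted values (black) and the Pf4 ratios in the bottom row. Endothelial medians lie below 0 on 12 arrays, macrophage medians lie on both sides of 0, and Pf4 lies above 0 on 11.

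The chemokine cluster that holds Ppbp and Pf4 was read gene by gene in chromosome order, as a set chosen by position after the data were seen. Cxcl5, before Ppbp, stood at 0.82 ± 0.54 (SE, n = 12, limma adjusted p = 0.410), with array values from -3.55 to 3.64 and 11 of 12 above 0. Without replicate 11, its single negative array, the fit passed the threshold (limma adjusted p = 0.0400). No other single array left out gave a call, with limma adjusted p up to 0.589. The Cxcl5 signal was well above background on 11 arrays for KO and on 6 for WT RNA, so its ratios rest in part on WT signals near background and their size is uncertain. Cxcl3, after Pf4, stood at 0.69 ± 0.30 (SE, n = 12, limma adjusted p = 0.196) and was above 0 on 9 arrays. These chemokines, like Cxcl1 and Cxcl2, attract neutrophils. Further along, Cxcl15 stood at -0.013 (limma adjusted p = 0.981), Cxcl1 at -0.19 (0.728) and Cxcl2 at -0.076 (0.351). Pf4 was the only one of these 7 cluster genes with a call, and Ppbp, between Cxcl5 and Pf4, was the one with the largest share of arrays below 0 (10 of 12).

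**Figure D5:**
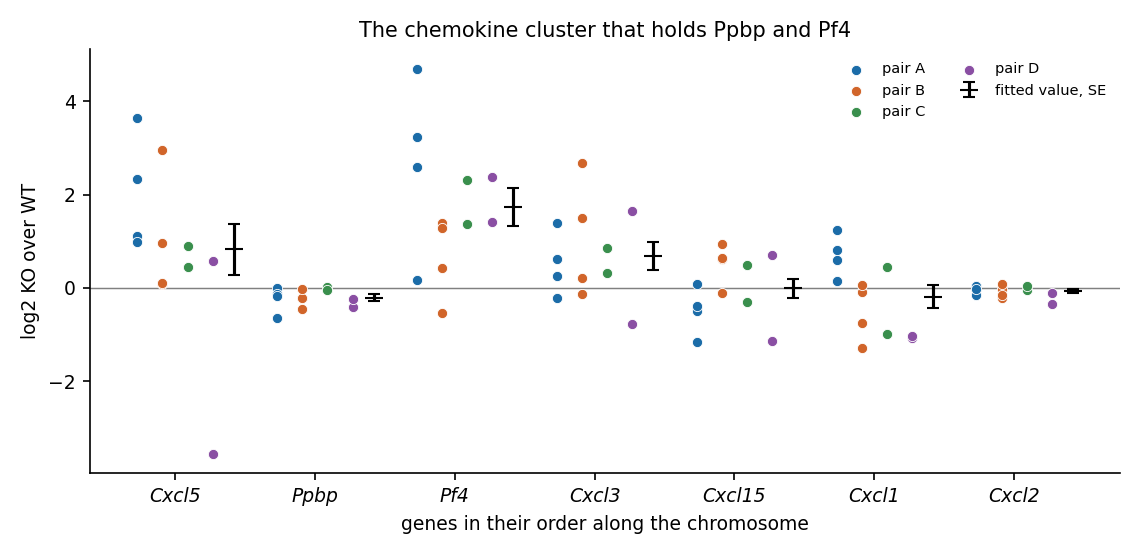
Log2 KO over WT ratio on each of 12 arrays (points, coloured by pair) and fitted value with SE (black) for 7 chemokine genes in their order along chromosome 5. Cxcl5, Pf4 and Cxcl3 reach 3.64, 4.70 and 2.68, the first with WT RNA well above background on 6 arrays only, and Ppbp stays between -0.65 and 0.015.

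Around the other members, the nearest measured gene on each side was called in 1 of 10 cases, near the 7.5% of all genes called. Slc25a11, a mitochondrial carrier gene beside Gp1ba, was higher (0.37 ± 0.093, limma adjusted p = 0.0336, higher on 11 of 12 arrays). That call ended without replicate 1, 2, 3, 4, 7 or 12 (limma adjusted p up to 0.0690). Septin5, whose gene overlaps that of Gp1bb, stood at -0.31 (limma adjusted p = 0.199), and the value of Gp1bb is uncertain to the extent that the 2 genes share sequence, which was not tested.

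The genes most like Pf4 over the 12 arrays, among 19035 genes measured on all of them, were Apoc1 (Pearson r = 0.88), Aco1 (0.88), Cdkn2a (0.85), Tmem209 (0.85) and Defcr-rs10 (0.84). None of these 5 was called between KO and WT RNA (limma, 0 of 5). Those most like Ppbp were Wfs1 (0.93), Mobp (0.92), Hdac1 (0.91), Syngr3 (0.90) and Khsrp (0.89), of which Hdac1 was called (0.24, limma adjusted p = 0.0378). With median centring the correlation was 0.0012 for Defcr-rs10 with Pf4 and 0.25 for Hdac1 with Ppbp, so these 2 rest on the normalization, and over all alternatives the other 8 stayed at 0.67 or higher. No member was among the 5 genes most like either chemokine. These correlations share arrays and slides with those of Pf4 and Ppbp, were the highest of many and are given as a description.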

How the data were processed

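RNA of KO and WT lung tumours was hybridised to 12 Agilent arrays of design 014868, whose probe annotation uses build mm7, per the file headers. The authors extracted spots with Agilent Feature Extraction 10.1.1.1 (protocol GE2-v5_10_Apr08), per the file headers. The deposited mean and background intensity values and the deposited 0 or 1 flags are not normalized, and Agilent's log10 ratio was dye-normalized, per the file headers. A deposited table of log2 ratio values, 1 per probe and array, is the authors' own result, and limma is the tool named for it per the submitters' processing notes. Its centring is unknown, and it correlated at 0.991 to 0.997 with the ratios used here (slope 1.003 to 1.057, medians -0.011 to 0.0078).

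With R 4.3.3, limma 3.58.1 and statmod 1.5.0, mean signals were background-corrected by normexp (offset 50), with outlying local backgrounds replaced by the array's median, and loess-normalized within arrays. Control and outlier spots (86 to 828 per array) had weight 0. Ratios were turned to KO over WT and fitted with a dye term and the pair as a random block (correlation 0.079), with Benjamini-Hochberg adjustment over all 35562 kept probes. The fit of lists and named genes other than the 7 used the brightest kept probe of each of 19582 genes. Levels are log2 intensities after loess and Aquantile. Probes were named by RefSeq accession (23075) or by the file (11390), and 6709 had no gene name. The 7 genes and the lists were chosen with earlier results of these data known. Named genes were all members, Dnmt3a, up to 4 genes of smallest p per list, all partners, the nearest measured genes and the 5 genes most like Pf4 and Ppbp. The scripts were tested on simulated data. Alternatives covered background, normalization, filter, block, dye term, arrays, weights, variance, probes per gene and the series matrix. A gene of the marker lists is not reported here by name.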

Additional observations from a re-analysis of the deposited data

Results flagged for a closer look

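Gp5 had ratios below 0 on both arrays of pair C and above 0 on both arrays of pair D, so that the mean of pair C minus that of pair D was -0.498. The contrast of these 2 pairs was not itself tested, and the limma F test over all 4 pairs gave an adjusted p of 0.570 for Gp5. Replicate 11 of pair D read 0.75 and replicate 12 0.0044. Both pairs lay on slide 3, where dye and pair cannot be told apart.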

How the results depend on the processing

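The Pf4 ratio stayed above 0 in 33 alternatives and kept its call in 17. It lost the call with median centring (1.83), with 1 mean per pair (1.76), with a trended and robust variance (1.74), without pair A (1.29), C (1.80) or D (1.60), without slide 3 (1.66, added after the data were seen), and within slides 1, 2 and 3 (2.67, 0.64 and 1.87). Leaving out single arrays gave 1.50 to 1.98. Without pair B the call was kept (2.26). Why the call ended in some settings and not in others was not tested. Gp9 kept its sign in 32 alternatives (-0.71 to -0.16) and its call in 9. The mean over pairs for Pf4 ran from 1.46 to 2.14 in 21 alternatives, and its exact test cannot pass the threshold with 4 pairs.

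The count of called members, 2, was 1 with local backgrounds as deposited, with scaling between arrays, with the filter on both dyes (which keeps 3 members) and without pair B, 0 to 2 with single arrays left out, and 0 with median centring, pair means, trended variance, without pair A, C or D or slide 3, and within each slide. Kept probes called, 2032, were 486 with median centring, 3269 with 12 arrays as independent, 51 with pair means, 627 with trended variance, 578, 1192, 1183 and 1268 without pairs A, B, C and D, 1256 without slide 3, 0, 1 and 0 within slides 1, 2 and 3, and 1053 to 2686 with single arrays left out. Genes called in the 4 platelet lists, 7, were 11 with arrays as independent and 0 with pair means and within each slide. In the cytoskeletal and signalling list 1 gene was called higher in 2 of 34 alternatives.

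Sign changes were limited to values without a call, except Hba-a1 within slide 2 (0.11). Some list medians also changed sign over the alternatives. They ran from -0.44 to 0.15 for general and from -0.73 to 0.15 for alveolar macrophage genes. For neutrophil genes the range was -0.48 to 0.39, for red cell genes -1.02 to 0.037, for lung epithelial genes -0.16 to 0.034 and for partners -0.38 to 0.042. Endothelial (-0.91 to -0.59) and interstitial macrophage medians (-0.28 to -0.056) stayed below 0. Gp1bb changed to -0.028 with local backgrounds as deposited, -0.0019 with scaling, -0.0030 with arrays independent or slide as block, -0.0054 with array weights, -0.053 and -0.024 without pairs C and D, -0.082 and -0.083 within slides 1 and 2, and -0.083 without slide 3 (-0.021 to 0.025 with single arrays left out). Gp5 changed to -0.057 without pair D, -0.033 and -0.027 within slides 1 and 2 and -0.030 without slide 3 (-0.047 to 0.058). Among partners, within slides or without slide 3, Cxcr3 gave 0.086 and 0.028, Cxcr2 0.016, Itgam -0.28 (-0.011 without pair A), F2 -0.39 and Adam10 -0.15 (-0.067 without pair B). Adam17 gave -0.0067, -0.0063, -0.0016, -0.0016 and -0.019 with deposited backgrounds, scaling, arrays independent, slide as block and array weights, -0.025 and -0.073 without pairs A and C, -0.22 within slide 2, -0.076 without slide 3 and -0.035 as a probe mean (-0.060 to 0.041). Col3a1 gave, in the same order of settings, 0.052, 0.10, 0.021, 0.021 and 0.22, then 0.0086 with Agilent signals, 0.042 with median centring, 0.0076, 0.027 and 0.32 without pairs A, C and D, 0.75 within slide 2, 0.36 without slide 3 and 0.0030 as a probe mean (-0.21 to 0.20). In the cluster, Cxcl5 gave -0.40 within slide 3, and Cxcl15 0.093, 0.017 and 0.040 with median centring, scaling and array weights, 0.21 and 0.017 without pairs A and D, 0.52 within slide 2, 0.016 without slide 3 and 0.034 as a probe mean (-0.11 to 0.10). Cxcl1 gave 0.0065 and 0.068 without pairs B and D, 0.70 within slide 1 and 0.089 without slide 3, and Septin5 0.022 within slide 2. Signal over background limits Gp9, Gp1ba and Gp6 on slide 3.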
